A study of Mus musculus with 5 samples.

Results

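The 10 genes described here encode transcription factors of the ETS family: Spi1, Spib, Spic, Ets1, Ets2, Fli1, Elf1, Elf4, Etv3 and Etv6. They were followed over 5 expression arrays of mouse bone marrow cells. The genes were chosen by name as ETS factors with known roles in blood cells, and all 10 were found among the 19938 genes that could be named on the array. The array of nonclassical monocytes, the patrolling cells of the vessel wall, held the highest value of 4 of the 8 genes that passed a floor on dim signal, Spi1, Ets1, Ets2 and Elf4, and Ets1 passed it on that array alone. Of all 11058 named genes past the floor, 25.4% had their highest value there. Over the 5 pairs of populations compared, 3 of the 8 genes past the floor were called different at least once. The share of all genes called at least once was not computed, so this count has no like background. No single comparison called more than 2 of the 8, where 2.21% to 13.4% of all tested genes were called in a single comparison. The genes called were Elf4, Ets1 and Ets2. Elf4 was lower in the common monocyte progenitor than in the common dendritic cell progenitor. It was also higher in the classical monocyte than in the common monocyte progenitor. Ets1 and Ets2 were higher in nonclassical than in classical monocytes.

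All cells came from wild type C57Bl/6 mice, were sorted by flow cytometry and received no treatment. The monocyte-dendritic cell progenitor (MDP) was sorted as Lin- CD115+ CD117+ CD135+, the common dendritic cell progenitor (CDP) as Lin- CD115+ CD117int CD135+, and the common monocyte progenitor (cMoP) as Lin- CD115+ CD117+ CD135-. Classical monocytes were Lin- CD115+ Ly6C+ TremL4- and nonclassical monocytes Lin- CD115+ Ly6C- TremL4+. There was 1 array per population, and the age and number of the mice behind each array are not stated in the labels. No value therefore has a replicate error, no test could be made, and neighbouring populations in any order given below cannot be said to differ beyond a spread.

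ETS factors share a DNA-binding domain that recognises a GGAA core. PU.1, the product of Spi1, is required for the myeloid lineages and for the gene of the CSF1 receptor, and its dose is known to bias progenitors between fates. Spi-B and Spi-C are its nearest relatives. Other members act in lymphocytes, in stem cells and megakaryocytes, or as repressors.

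Values are log2 expression per probe set as the authors deposited them, so that 1 log2 unit is 2-fold. A probe set's brightness depends on its probes, so each gene was compared only with itself across arrays. The floor on dim signal was 6.27, the median of all named genes' values. It is a convention and not a detection limit. A gene was called in a pair of arrays where they differed by 1 log2 unit or more and the brighter array lay at or above the floor. Of the 10 genes, 8 had at least 1 array at or above it, and Spib and Spic had none.

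The promoters of the called or wide-ranging genes are shown because ETS factors can act on each other's genes through the GGAA core. RefSeq (GRCm38.p6) promoter windows were at hand for 7 of the 10 genes, in 9 windows. None was at hand for Spi1, Ets1 and Fli1, so their promoters are neither shown nor searched. The 250 bases before the annotated start are printed for Ets2, Elf4 and Etv6, with each GGAA core, on either strand (TTCC when on the other strand), in capitals. Ets2 lies on the plus strand at chr16:95702157-95702406, Elf4 on the minus strand at chrX:48463133-48463382, and Etv6 on the plus strand at chr6:134035450-134035699.
Ets2: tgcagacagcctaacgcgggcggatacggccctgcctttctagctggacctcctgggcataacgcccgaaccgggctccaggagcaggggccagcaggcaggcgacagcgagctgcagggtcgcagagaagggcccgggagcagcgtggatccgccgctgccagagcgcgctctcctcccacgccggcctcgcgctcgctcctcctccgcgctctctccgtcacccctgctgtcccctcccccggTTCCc
Elf4: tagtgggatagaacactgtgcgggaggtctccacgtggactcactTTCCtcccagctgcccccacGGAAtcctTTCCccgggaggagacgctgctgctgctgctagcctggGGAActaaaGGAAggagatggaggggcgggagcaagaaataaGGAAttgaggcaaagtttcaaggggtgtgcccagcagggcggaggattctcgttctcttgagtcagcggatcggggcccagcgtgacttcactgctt
Etv6: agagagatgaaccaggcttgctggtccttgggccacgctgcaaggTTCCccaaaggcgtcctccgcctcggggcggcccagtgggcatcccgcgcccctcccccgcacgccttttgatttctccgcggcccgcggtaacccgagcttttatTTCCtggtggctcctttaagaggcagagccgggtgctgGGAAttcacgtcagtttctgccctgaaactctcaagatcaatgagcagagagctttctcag

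The Ets2 window held 1 core, the Elf4 window 6 and the Etv6 window 3. Over all 32851 mouse promoter windows of this length the median was 3 cores, 93.4% had at least 1 and 8.69% had at least 6. The second Elf4 window, 250 bases at chrX:48454320-48454569, held 2 cores. The Etv3 window held 6, the Elf1 windows 2 and 0, and the Spib and Spic windows 1 each. The longer letters GAGGAAGT, a PU.1-type site, and CCGGAAGT, a site of many other ETS factors, both contain the core and were searched on both strands. Neither stood in any of the 9 windows, while 2.44% and 2.88% of all windows hold them. These are matches of letters in short windows and say nothing of binding.

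**Figure D1:**
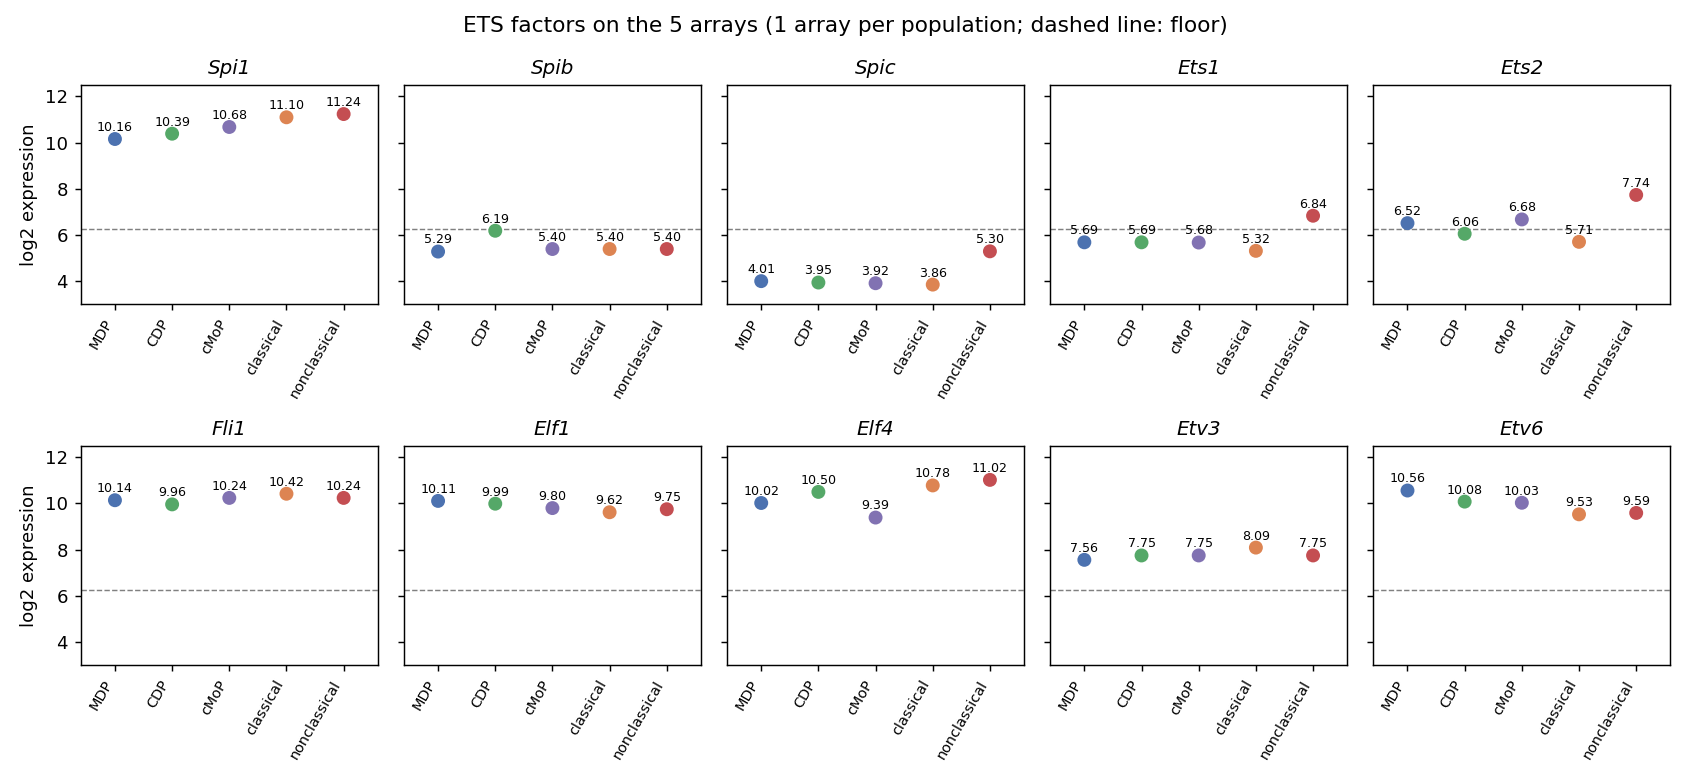
Log2 expression (y axis) of each of the 10 ETS genes on the 5 arrays (x axis), 1 point per population and no error bars because there is 1 array each. The dashed line is the floor of 6.27; Spi1 climbs to 11.24 in nonclassical monocytes, Ets1, Ets2 and Spic stand out on that array, and all points of Spib and Spic lie under the line.

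Spi1 stood at 10.16 in MDP, 10.39 in CDP, 10.68 in cMoP, 11.10 in classical monocytes and 11.24 in nonclassical monocytes. It was thus lowest in the shared progenitor and highest in the nonclassical monocyte, a span of 1.07 log2 units or 2.10-fold. No single step reached 2-fold: cMoP was higher than MDP by 0.52, the classical monocyte higher than cMoP by 0.42, and the nonclassical higher than the classical monocyte by 0.14. Both monocyte arrays lay above all 3 progenitor arrays, with a gap of 0.42 between the lowest monocyte and the highest progenitor value. Of 11058 genes past the floor on any array, 1276 had a gap of that size or larger in either direction.

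Spib encodes Spi-B, a factor of B cells and plasmacytoid dendritic cells. It stood at 5.29 in MDP and at 6.19 in CDP, while cMoP, classical and nonclassical monocytes were each at 5.40. CDP stood alone above the other 4 arrays, which lay within 0.12 of each other, and was higher than MDP by 0.91. All 5 values lay under the floor, so no fold is given. Among the 7 measured plasmacytoid dendritic cell markers, 5 were at or above the floor in CDP and 3 on each other array. Their summed linear signal was 3070 in CDP and between 1100 and 1680 elsewhere, with Ccr9 and Pacsin1 under the floor on every array. Bst2, the brightest of them in CDP, was at 10.42 there and at 8.47 to 9.69 elsewhere. The summed signal of conventional dendritic cell markers was also highest in CDP. Of 8 measured, 6 were at or above the floor there, with a sum of 1990, against 432 to 619 elsewhere. Zbtb46 and Xcr1 were under the floor on every array. Xcr1 was highest in nonclassical monocytes (5.29, against 4.73 in CDP), and Itgax was at 6.93 in CDP and 6.80 in nonclassical monocytes. The part of both sets of markers in the Spib value was not tested.

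Spic encodes Spi-C, which is needed for red pulp and marrow macrophages that recycle iron and is induced by heme. It stood at 4.01 in MDP, 3.95 in CDP, 3.92 in cMoP, 3.86 in classical monocytes and 5.30 in nonclassical monocytes. The nonclassical array was 1.45 log2 units above the classical one, and the other 4 arrays lay close together. Every value was under the floor, so this difference was not counted and its size depends on dim signal.

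Genes that go with Spi-C in macrophages of the spleen and marrow were read from a list of 14, all measured, of which 7 passed the floor on some array. Hmox1, the heme oxygenase, had values of 9.84 in both monocyte arrays, against 5.75 in MDP, 6.38 in CDP and 6.87 in cMoP. Bach1, the heme-sensitive repressor of Hmox1 and Spic, was at 9.95 in nonclassical and 9.39 in classical monocytes, against 7.72 to 7.84 in the progenitors. These were the only 2 genes of the list with a gap of 1 log2 unit or more between monocyte and progenitor arrays. Of all genes past the floor, 2.34% had such a gap upward and 3.11% in either direction. Hmox1 was called higher in the classical monocyte than in cMoP (2.97) and in cMoP than in MDP (1.12), and Bach1 in the classical monocyte than in cMoP (1.54). These stand beside 7.01% of all genes higher in the classical monocyte than in cMoP and 1.44% higher in cMoP than in MDP. Cd163, the macrophage receptor for haptoglobin with hemoglobin, was called lower in cMoP than in CDP (-1.26), where 2.20% of all genes were lower. It was at 6.68 in MDP, 7.26 in CDP, 6.01 in cMoP, 5.64 in classical and 4.99 in nonclassical monocytes, so that it passed the floor in MDP and CDP and was lowest where Spic was highest. The iron exporter Slc40a1, the adhesion molecule Vcam1 and Cd5l stayed under the floor on all arrays. Between nonclassical and classical monocytes 0 of 6 tested genes of the list were called, where 13.4% of all tested genes were. Hmox1 differed there by 0.00 and Spic by 1.45.

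Macrophage markers bear on both Spic and Ets2. The summed linear signal of the 10 markers was 2820 in nonclassical and 1240 in classical monocytes, against 488 to 605 in the progenitors. Adgre1, an adhesion receptor that monocytes also carry, was at 11.25 in nonclassical and 9.65 in classical monocytes. The other marker at or above the floor on the monocyte arrays was Siglec1, at 6.59 in nonclassical and 6.78 in classical monocytes. Vcam1, C1qa, C1qb, C1qc, Cd5l, Mrc1 and Mertk were under the floor on all 5 arrays, and Cd163 on the cMoP and both monocyte arrays. Fewer cells of a type and less RNA per cell cannot be told apart in these sorted bulk samples.

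Ets1 encodes a factor best known in T, B and NK cells. It stood at 5.69 in MDP, 5.69 in CDP, 5.68 in cMoP, 5.32 in classical monocytes and 6.84 in nonclassical monocytes. The nonclassical array was the only one at or above the floor, and the MDP and CDP values were identical to the last digit. Nonclassical monocytes were higher than classical monocytes by 1.52, or at least 1.49-fold when measured from the floor. The call thus rests on a classical value under the floor, and the bound from the floor does not reach 2-fold.

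Lymphocyte markers are given beside Ets1 because lymphocytes express it. Of 9 measured B cell markers, 2 were at or above the floor in nonclassical and 2 in classical monocytes, with a summed linear signal of 1050 in nonclassical and 697 in classical monocytes. Cd79b, a chain of the B cell receptor, made up much of it, at 9.28 in nonclassical and 8.41 in classical monocytes, and it was higher still in cMoP (9.50). Vpreb1, the other B cell marker past the floor there, was at 6.98 in nonclassical and 6.45 in classical monocytes. Cd79a, Ms4a1, Pax5 and Ebf1 were under the floor on all arrays. Of 10 measured T and NK cell markers, 2 passed the floor in nonclassical and 1 in classical monocytes, with a sum of 478 in nonclassical and 427 in classical monocytes. Cd247 passed it on both, at 6.86 in nonclassical and 6.70 in classical monocytes. Cd8a passed it in nonclassical monocytes only, at 6.43 against 6.10 in classical monocytes. Cd3e, Cd3d, Cd3g, Ncr1 and Gzma were under the floor on all arrays. The part of Cd79b and the other markers in the Ets1 value was not tested.

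Ets2, which is phosphorylated downstream of CSF1 signalling in macrophages, stood at 6.52 in MDP, 6.06 in CDP, 6.68 in cMoP, 5.71 in classical monocytes and 7.74 in nonclassical monocytes. The classical monocyte was lowest and the nonclassical monocyte highest, the widest span of the 10 genes at 2.03 log2 units. Measured from the floor, nonclassical monocytes were at least 2.77-fold higher. The classical monocyte differed from cMoP by -0.97, just inside the threshold, and was called lower after quantile normalization (-1.01) and after median centring (-1.02). The classical monocyte was thus the low point between cMoP and the nonclassical monocyte, and it and CDP were the arrays on which Ets2 lay under the floor.

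Feedback genes of the MAP kinase pathway, which phosphorylates Ets2, were read from a list of 11, of which 9 were measured and 7 passed the floor. Spred2, an inhibitor of Ras signalling, was at 8.94 in nonclassical and 7.13 in classical monocytes, against 8.32 in cMoP, so that it too was lowest in the classical monocyte. Dusp5, a nuclear phosphatase of ERK, was at 7.82 in nonclassical and 6.76 in classical monocytes, against 6.6 in cMoP. Dusp6, the cytoplasmic ERK phosphatase, was at 9.55 in nonclassical and 8.69 in classical monocytes, against 7.58 in cMoP. Neither Dusp5 nor Dusp6 was lowest in the classical monocyte. In all, 2 genes of the list were higher and 0 lower in nonclassical than in classical monocytes, where 3.55% of all tested genes were higher and 9.82% lower. In the classical monocyte against cMoP, Fos (1.87) and Dusp6 (1.11) were higher and Spred2 (-1.19) was lower, where 7.01% of all genes were higher and 4.40% lower.

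Elf4, a factor tied to quiescence of stem cells and to the interferon response, stood at 10.02 in MDP, 10.50 in CDP, 9.39 in cMoP, 10.78 in classical monocytes and 11.02 in nonclassical monocytes. The cMoP was lowest, below both other progenitors, and the monocytes were highest. Elf4 was lower in cMoP than in CDP by a difference of -1.11 (2.16-fold), and higher in the classical monocyte than in cMoP by 1.38 (2.61-fold). Against MDP, cMoP differed by -0.62 and CDP by 0.49, so the 2 committed progenitors lay on opposite sides of the shared one. After median centring the difference between cMoP and CDP was -1.0, inside the threshold before rounding.

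Elf4 has a second probe set, at 5.53 on all 5 arrays with identical values. Averaging it with the brighter one gave -0.55 for cMoP against CDP and 0.69 for the classical monocyte against cMoP, and ended both calls. A probe set with no variation at all adds no direction of its own.

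Etv6, a repressor needed by stem cells in the marrow, stood at 10.56 in MDP, 10.08 in CDP, 10.03 in cMoP, 9.53 in classical monocytes and 9.59 in nonclassical monocytes. MDP was highest and both monocytes were lowest, a span of 1.03. No step reached 2-fold, at -0.48 for CDP against MDP, -0.53 for cMoP against MDP and -0.50 for the classical monocyte against cMoP. The monocyte arrays lay below all 3 progenitor arrays with a gap of -0.44, a size met or passed by 1208 of 11058 genes. Both monocyte arrays thus lay above every progenitor array for Spi1 and below every progenitor array for Etv6.

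Etv3, a repressor that limits proliferation in differentiating macrophages, stood at 7.56 in MDP, 7.75 in CDP, 7.75 in cMoP, 8.09 in classical monocytes and 7.75 in nonclassical monocytes. Its values in CDP, cMoP and nonclassical monocytes were identical to the last digit, and the classical monocyte was higher than cMoP by 0.34. Such ties are common in the table: 4 of the 10 genes and 33.9% of the genes past the floor have at least 1 tied pair of arrays. No source at hand states their origin, and small differences may have been lost through them.

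Fli1, a factor of megakaryocytes and stem cells, stood at 10.14 in MDP, 9.96 in CDP, 10.24 in cMoP, 10.42 in classical monocytes and 10.24 in nonclassical monocytes. Its span of 0.46 was the narrowest of the 10 genes. The nonclassical against classical difference of -0.18 became 0.03 after quantile normalization, which made the nonclassical array the highest. Of the 5 measured megakaryocyte and platelet markers, 2 were at or above the floor in MDP, CDP and cMoP each, 1 in classical and 3 in nonclassical monocytes. Treml1 was at 6.55 to 6.90 over the 5 arrays and Gp9 at 6.25 to 6.61, Itga2b reached 6.33 in nonclassical monocytes, and Pf4 and Ppbp were under the floor on all arrays. Their summed linear signal was between 264 and 317, and its part in the Fli1 values was not tested. Elf1, a broadly expressed lymphoid and myeloid factor, stood at 10.11 in MDP, 9.99 in CDP, 9.80 in cMoP, 9.62 in classical monocytes and 9.75 in nonclassical monocytes. Its span was 0.49, and the monocyte arrays lay below the progenitor arrays with a gap of -0.05.

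**Figure D2:**
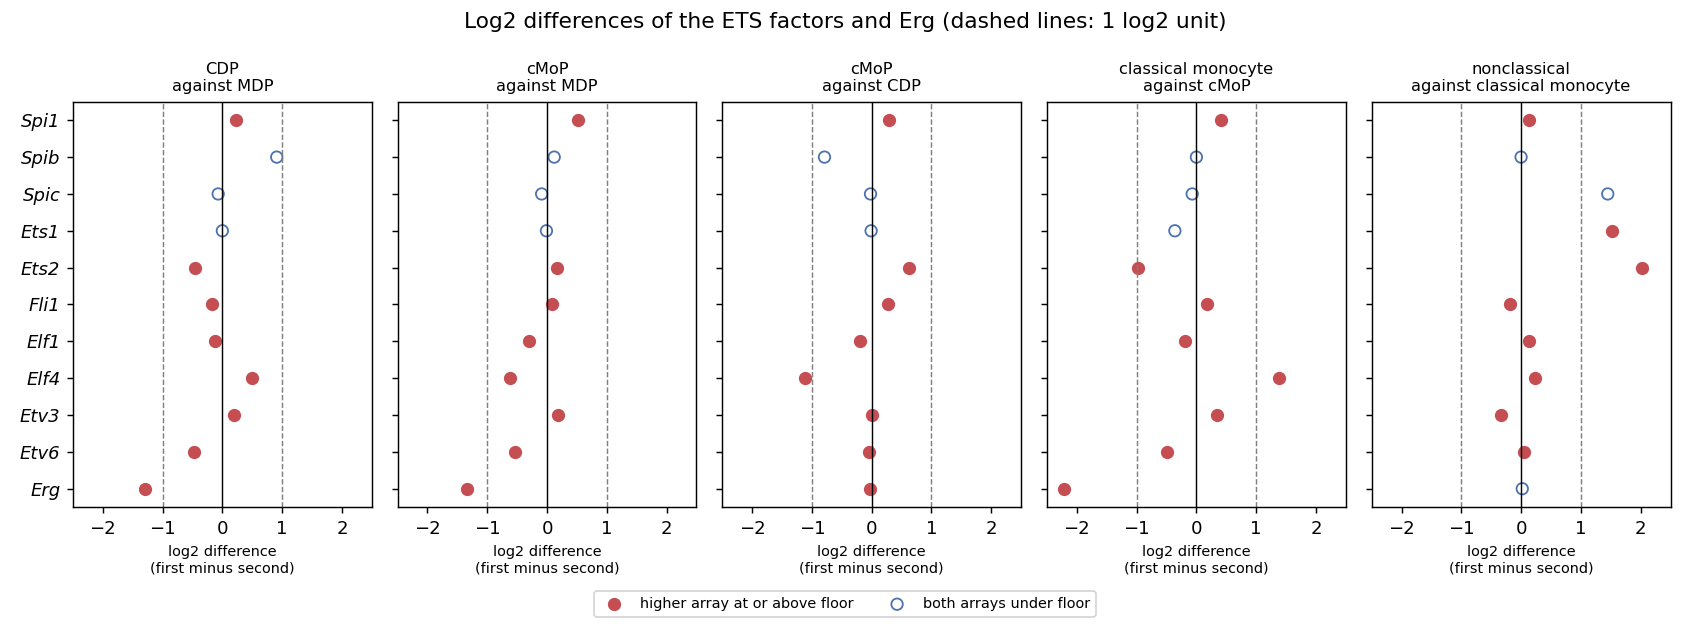
Log2 difference (x axis, first population minus second) of the 10 ETS genes and Erg (y axis) in the 5 comparisons, 1 panel each. Filled points have the brighter array at or above the floor, open points have both arrays under it, and the dashed lines mark 1 log2 unit; filled points past the lines are Elf4 (-1.11 and 1.38), Ets1 (1.52), Ets2 (2.03) and Erg (-1.30, -1.34 and -2.21).

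The counts by comparison were small. In CDP against MDP, 7 of the 10 genes passed the floor and 0 were called, where 1.15% of all 10416 tested genes were higher, 1.06% lower and 2.21% called in either direction. In cMoP against MDP, again 0 of 7 were called, where 1.44% of all genes were higher, 1.40% lower and 2.83% called in either direction. In cMoP against CDP, 1 of 7 was lower, Elf4, where 2.20% of all genes were lower, 3.23% higher and 5.43% called in either direction. In the classical monocyte against cMoP, 1 of 7 was higher, Elf4, where 7.01% of all genes were higher, 4.40% lower and 11.4% called in either direction. In the nonclassical against the classical monocyte, 2 of 8 were higher, Ets1 and Ets2, where 3.55% of all genes were higher, 9.82% lower and 13.4% called in either direction. Ets1 entered that comparison only through the array on which it was high. A monocyte gap of 1 log2 unit over the progenitors, or the reverse, was found for 0 of 8, where 3.11% of all genes had it.

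The medians of the tested genes among the 10 were -0.12 in CDP against MDP, 0.09 in cMoP against MDP, 0.00 in cMoP against CDP, 0.18 in the classical monocyte against cMoP and 0.14 in the nonclassical against the classical monocyte. The medians of all tested genes in the same order were -0.01, 0.00, 0.02, -0.01 and -0.09. Of the 8 genes past the floor, 5 spanned 1 log2 unit or more over the arrays, where 36.7% of all genes past the floor did. The 5 were Spi1, Ets1, Ets2, Elf4 and Etv6. Spans include values under the floor, where the lowest values of Ets1 (5.32) and Ets2 (5.71) lay. Measured from the floor, Ets1 spanned at least 1.49-fold and Ets2 at least 2.77-fold, against 3.08-fold for Elf4.

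**Figure D3:**
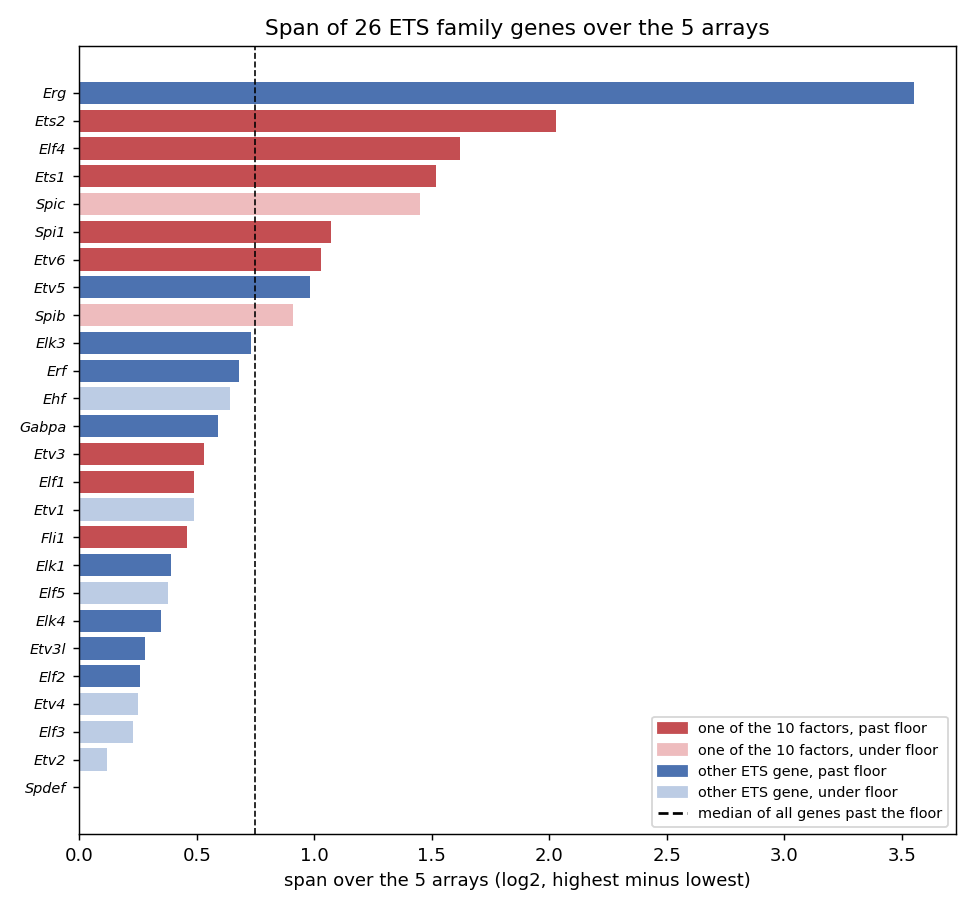
Span over the 5 arrays (x axis, log2, highest minus lowest value) of 26 ETS family genes (y axis), with the 10 factors in red, other ETS genes in blue, and pale bars for genes under the floor on all arrays. The dashed line is the median span of all genes past the floor, 0.75. Erg leads at 3.55, followed by Ets2 at 2.03, Elf4 at 1.62 and Ets1 at 1.52. The lowest values of Erg, Ets2 and Ets1 lie under the floor.

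Of 17 other ETS genes, 16 were measured and 10 passed the floor on some array. Erg, a factor that maintains stem cells, stood at 9.68 in MDP, 8.37 in CDP, 8.34 in cMoP, 6.13 in classical monocytes and 6.15 in nonclassical monocytes. Its order was stepwise, with MDP on top, both committed progenitors below it and both monocytes under the floor. Erg was lower in CDP than in MDP by a difference of -1.30 (2.47-fold) and lower in cMoP than in MDP by -1.34 (2.52-fold). In the classical monocyte against cMoP it was lower by -2.21, at least 4.21-fold. It was the only one of the 26 ETS genes with a gap of 1 log2 unit or more between monocyte and progenitor arrays, at -2.19, and 0.769% of all genes had such a gap downward.

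The other 9 had no call in any of the 5 comparisons. Etv5, a target and effector of growth factor signalling, had 7.07 in MDP, 6.82 in CDP, 6.57 in cMoP, 6.09 in classical and 6.55 in nonclassical monocytes, with MDP highest. Its second probe set was highest in CDP, at 6.14 in MDP, 6.46 in CDP, 5.86 in cMoP, 5.14 in classical and 5.82 in nonclassical monocytes, so the probe sets disagree on the order of MDP and CDP, and CDP alone passed the floor in the second. Elk3, a partner of serum response factor, had 9.44 in MDP, 9.11 in CDP, 8.99 in cMoP, 9.17 in classical and 9.72 in nonclassical monocytes. Erf, a repressor controlled by ERK, had 8.16 in MDP, 8.02 in CDP, 8.0 in cMoP, 7.69 in classical and 7.49 in nonclassical monocytes, so that its lowest values were those of the monocytes.

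Gabpa, which serves genes of mitochondria and translation, ranged from 9.21 in nonclassical monocytes to 9.80 in MDP. Elk1 and Elk4, which also partner serum response factor, ranged from 7.84 to 8.23 and from 8.23 to 8.58, and both were lowest in cMoP. Elf2, the near relative of Elf1, ranged from 9.05 to 9.31. Etv3l ranged from 6.57 to 6.85, and Spdef, a factor of secretory epithelium, stood at 6.55 on all 5 arrays with identical values. Etv1, Etv2, Etv4, Elf3, Elf5 and Ehf, several of them epithelial factors, were under the floor throughout. Over all 18 ETS genes past the floor the median span was 0.63, where all genes past the floor had 0.75.

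Partners and antagonists of PU.1 were read from a list of 18, of which 17 were measured and 15 passed the floor. Irf8, which binds DNA together with PU.1 in monocytes and dendritic cells, stood at 10.54 in MDP, 11.07 in CDP, 10.45 in cMoP, 10.32 in classical and 9.0 in nonclassical monocytes. It was highest in CDP and lower in the nonclassical than in the classical monocyte by a difference of -1.32, while Spi1 differed there by 0.14. Irf4, the other interferon regulatory factor that pairs with PU.1 and Spi-B, was at 7.35 in nonclassical and 6.73 in classical monocytes, against 4.69 to 5.62 in the progenitors, all of those under the floor, and was called higher in the classical monocyte than in cMoP (2.04). Irf4 and Irf8 thus had their highest values on different arrays.

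Cebpb, a factor of macrophage genes, was the gene of this list whose order matched that of Spi1, with 6.99 in MDP, 7.52 in CDP, 8.09 in cMoP, 8.53 in classical and 8.98 in nonclassical monocytes, and it was called higher in cMoP than in MDP (1.10). Myb, a factor of proliferating progenitors, was at 5.68 in nonclassical and 8.54 in classical monocytes, against 10.80 to 11.45 in the progenitors, and was called lower in both monocyte comparisons. Jun, a cofactor of PU.1, was higher in nonclassical than in classical monocytes by 1.36. Runx1, which acts upstream of Spi1, was at 9.31 in nonclassical and 9.48 in classical monocytes, against 9.72 to 10.17 in the progenitors. Of the list, 1 gene was higher and 1 lower of 15 tested in the classical monocyte against cMoP (7.01% higher and 4.40% lower among all genes), and 1 was higher and 2 lower of 14 in the nonclassical against the classical monocyte (3.55% and 9.82%). Gata1, the erythroid antagonist of PU.1, stood at 5.10 on all arrays with identical values.

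Genes known to depend on PU.1 were a list of 20, of which 19 were measured, and all of these passed the floor on some array. The list was chosen with earlier results of these arrays known, so the shares of all genes beside its counts are no test. The classical monocyte against cMoP had 10 of 17 tested genes higher and 0 lower, with a median of 1.54, where 7.01% of all genes were higher. Msr1, a scavenger receptor, was higher by 5.55, Fgr, a Src family kinase, by 4.84 and the integrin chain Itgam by 3.60. Itgb2, its partner chain, was higher by 2.88, the protease Ctss by 2.45 and the Fc receptor Fcgr1 by 2.40. Over the same step Spi1 itself was higher by 0.42.

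In CDP against MDP, 3 of 15 were higher, namely Itgb2 (1.74), Fgr (1.60) and Cybb (1.09), a subunit of the NADPH oxidase, and 1 was lower, Csf3r (-1.23), the receptor for G-CSF, where 1.15% of all genes were higher and 1.06% lower. In cMoP against MDP, 4 of 15 were higher, Cybb (2.44), Tlr4 (1.93), Lyz2 (1.39) and Itgb2 (1.10), and 2 were lower, the gate gene Flt3 (-4.35) and Il7r (-2.36), both receptors of early and lymphoid-biased progenitors. Of all genes, 1.44% were higher and 1.40% lower there. Flt3 encodes CD135, and cMoP was sorted as CD135- while MDP and CDP were CD135+. Its lower value in cMoP was thus set by the gate, though it is counted. Without it, Il7r was the only gene lower here, and Il7r and Fgr were those lower against CDP. In cMoP against CDP, 3 of 16 were higher, Tlr4 (2.12), Csf3r (1.55) and Cybb (1.35), and 3 lower, Flt3 (-4.34), Il7r (-2.75) and Fgr (-1.32), with a median of -0.41, where 3.23% of all genes were higher and 2.20% lower. In the nonclassical against the classical monocyte, 3 of 18 were higher, Il1b (4.43), Fgr (1.37) and the gate gene Csf1r (1.30), and Msr1 (-3.02) was lower, beside 3.55% higher and 9.82% lower among all genes.

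Of the 19 genes, 9 had a monocyte gap of 1 log2 unit or more over the progenitors, where 2.34% of all genes had one. Their highest value lay on the nonclassical array for 11 of 19, where 25.4% of all genes past the floor had theirs. It lay on either monocyte array for 16 of 19, a share that was not computed over all genes. The exceptions were Flt3 and Btk, highest in MDP, and Il7r, highest in CDP. Btk, a kinase of the Tec family, spanned 0.28 only. The list was chosen with earlier results of these arrays known, so its counts describe that choice as well as the arrays.

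**Figure D4:**
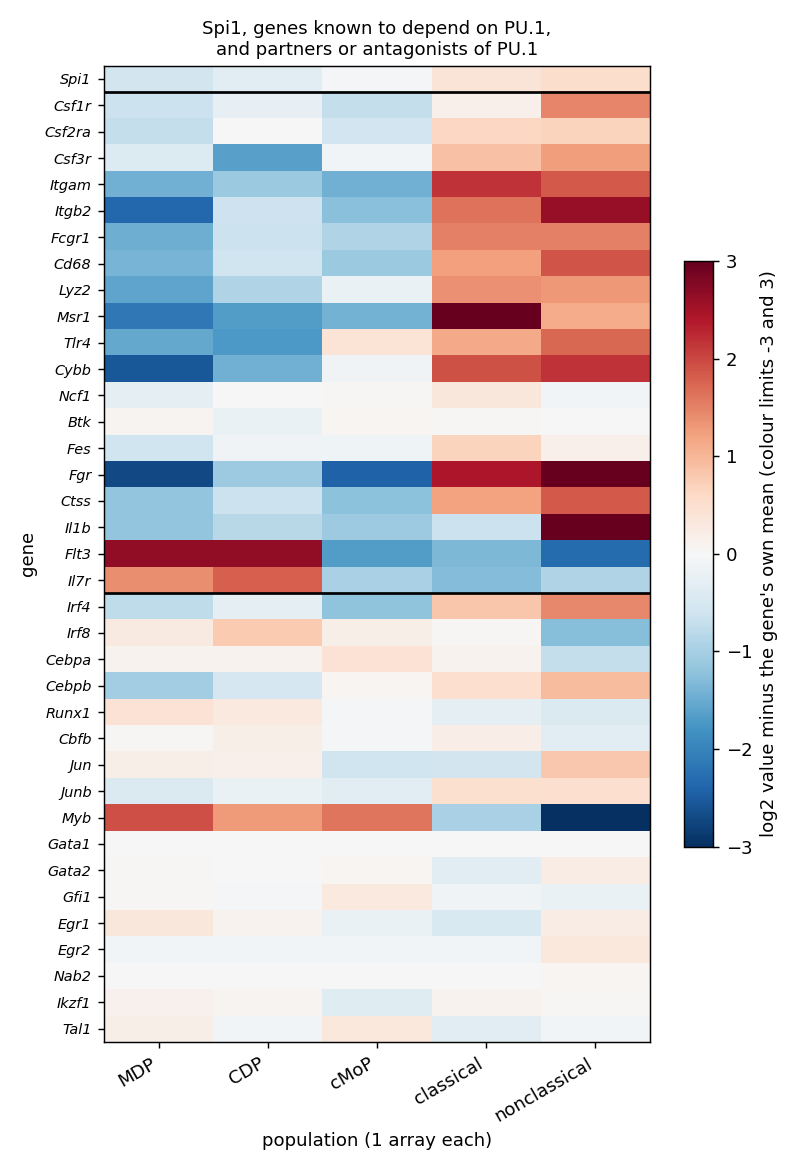
Log2 value minus the gene's own mean over the 5 arrays (colour, red above and blue below the mean, limits -3 and 3) for Spi1, for 19 genes known to depend on PU.1 and for 17 partners or antagonists (rows), by population (columns, 1 array each). Black lines separate the 3 blocks; Spi1 spans 1.07, while Fgr spans 6.49 and Msr1 6.26, and Flt3 and Il7r run the other way.

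Genes whose course over the 5 arrays was most like that of a factor were found by the distance between centred profiles. For Spi1 they were Map1lc3b, an autophagy protein, at a distance of 0.05 log2 units, then Septin9 and Atox1, a copper chaperone, at 0.105 and 0.109. Map1lc3b stood at 9.84 in MDP, 10.02 in CDP, 10.35 in cMoP, 10.77 in classical and 10.93 in nonclassical monocytes. For Ets1 they were Tubb6, a tubulin (0.126), Tgm2, a transglutaminase (0.174), and Ttc7b (0.176), all highest in nonclassical and lowest in classical monocytes. The nearest genes to Ets2 lay further off, with Zfp770 at 0.401, Sipa1l1 at 0.403 and Itm2a at 0.46. Itm2a passed the floor in nonclassical monocytes only (7.07, against 5.10 to 5.58 elsewhere), so its likeness rests mostly on dim values.

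For Elf4 the nearest genes were Ep300, a histone acetyltransferase (0.148), Bmpr2, a receptor for bone morphogenetic proteins (0.152), and Utrn, the gene of utrophin (0.248). Bmpr2 stood at 8.94 in MDP, 9.27 in CDP, 8.15 in cMoP, 9.62 in classical and 9.92 in nonclassical monocytes, with the same low point in cMoP. For Etv6 they were Ankrd10 (0.089), Gsdme, the gene of gasdermin E (0.10), and Khdrbs3 (0.103). Khdrbs3 passed the floor in MDP only (6.39, against 5.40 to 5.89 elsewhere), so its likeness too rests mostly on dim values. Each course rests on 5 arrays with no replicate, and these names are a description only.

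Across the series, array medians over all probe sets lay between 6.02 and 6.16, and 9831 to 10167 named genes were at or above the floor on each array. The gate genes Kit, Flt3 and Treml4 followed the sort, with Treml4 at 11.78 in nonclassical and 6.18 in classical monocytes and Flt3 at 6.40 in cMoP and 10.74 in CDP. Every population was sorted as CD115+, so the gates set no order for its gene Csf1r. It ranged from 10.03 in cMoP to 12.21 in nonclassical monocytes. The summed linear signal of 10 neutrophil markers was 14500 in classical monocytes, against 3690 in cMoP, and from 893 to 2120 elsewhere. In classical monocytes the brightest were S100a8 (12.64), S100a9 (12.07), Mmp8 (11.28) and Csf3r (9.93), the last also on the PU.1-dependent list. Camp (6.89) and Ngp (6.62) lay near the floor there and Cxcr2 (5.51) under it. Ltf, Mmp9 and Ly6g were under the floor throughout. The part of these markers in the Elf4 and Ets2 values was not tested.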

How the data were processed

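RNA of 5 sorted mouse marrow populations was measured on expression arrays, 1 array each, grouped by the sample titles. The authors deposited log2 expression for 35556 probe sets. That the unit is log2 was inferred from its range of 1.59 to 14.24; no source at hand names the logarithm's base, the background correction, the normalization or the software, and folds would change with another base. Per the labels' protocols RNA was extracted with a column kit and biotin-labelled.

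Probe sets were named from the platform annotation: 21789 carry 1 symbol, 1621 several and 12146 are not listed. Probe sets with 1 symbol gave 19938 genes, each by its probe set with the highest mean. All 26 measured ETS symbols matched the RefSeq table (GRCm38.p6, used for names). The floor was 6.27 and the threshold 1 log2 unit. A fold whose lower value lay under the floor is given against the floor. The functions were tested on simulated data.

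The 10 genes and all lists were chosen with earlier results of these data known. Text names all 10 genes, other ETS genes past the floor, called genes of the other lists (up to 6 per comparison), and 3 genes nearest to each factor that spans 1 log2 unit; genes of those lists named with no call were chosen after their values were seen. The number of arrays limits the precision. Python 3.11.15, pandas 2.3.3 and numpy 2.4.6 were used. Alternatives were quantile normalization, median centring, other floors, the mean of probe sets and a threshold of 0.5.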

Additional observations from a re-analysis of the deposited data

How the results depend on the processing

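No paired analysis was possible because each population has 1 array, which also leaves no replicate to leave out. Among the 10 factors, calls in cMoP against CDP fell to 0 lower with median centring and with the mean of probe sets, against 1, and those in the classical monocyte against cMoP became 1 lower with quantile normalization, with centring and with the threshold of 0.5, against 0, the gene being Ets2 each time. The mean of probe sets left 0 higher there, against 1. A floor at the upper quartile (7.93) left 0 higher in the nonclassical against the classical monocyte, against 2, since Ets1 and Ets2 lie under it. With no floor Spic joined them. The threshold of 0.5 gave 1 higher (Spi1) and 2 lower (Elf4, Etv6) in cMoP against MDP and 1 higher (Ets2) in cMoP against CDP.

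Over the 5 comparisons together, the threshold of 0.5 gave the other ETS genes 1 higher call, against 0. It gave the PU.1 partners 10 higher and 11 lower, against 3 and 3, and the PU.1-dependent genes 36 and 12, against 23 and 7. It gave the heme and macrophage list 11 and 3, against 3 and 1, and the MAP kinase list 8 and 6, against 4 and 1. The upper quartile floor left 4 lower for the PU.1-dependent genes and 0 for the heme list, which had 2 with no floor.

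Centring moved the median of all genes by 0.113 in cMoP against MDP and by 0.109 in cMoP against CDP. Of 50 differences between 2 arrays, 6 changed sign with quantile normalization and 7 with centring, all of a deposited size of 0.18 or less. The order of the 5 arrays, leaving out pairs tied in the deposited values, was kept by 5 of the 10 genes with quantile normalization and by 6 with centring. Spi1, Ets2, Elf4 and Etv3 kept it in both. Centring broke a tie of Etv3, with 0.11 for cMoP against CDP. Ranking likeness by correlation in place of distance kept 1 of 3 genes for Spi1, Ets2 and Elf4 and 0 for Ets1 and Etv6.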
